A study of Mus musculus with 17 samples.

Results

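The unfolded protein response and the integrated stress response were followed through 10 genes in mouse kidney: Hspa5, Sdf2l1, Herpud1, Atf6, Xbp1, Atf4, Ddit3, Trib3, Asns and Chac1. They were taken by gene name from a deposited expression table of 42794 complete gene lines, and each name was found once. Kidney RNA was sequenced in 17 libraries. The study was set up to ask how glucagon acts on lipid synthesis in the proximal tubule of the kidney. The 7 libraries titled DKD_shRNA carried the genotype Gcgr shRNA, an shRNA that targets the glucagon receptor and was meant to act in proximal tubule cells. The 6 libraries titled DKD_Vehicle carried the genotype Ctr shRNA, so titles and genotype differ on whether these mice had a vehicle or a control hairpin. The 4 libraries titled NC carried the genotype WT. DKD stands in the titles of both shRNA genotypes, in a series on diabetic kidney disease. Strain, sex, age, the way the disease was brought about and the delivery of the hairpin were not stated in the sources used here. Since the labels do not say which mouse each library came from, p-values cover the spread among libraries, which may be technical.

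The endoplasmic reticulum (ER) folds proteins for secretion and for membranes, and unfolded protein there is sensed by IRE1, PERK and ATF6. IRE1 splices the Xbp1 transcript and ATF6 is cleaved in the Golgi, and both then act as transcription factors on chaperone and degradation genes, while PERK phosphorylates eIF2 alpha. Phosphorylated eIF2 alpha, which other kinases also produce under amino acid shortage, viral RNA or haem shortage, lowers general translation and favours translation of ATF4, which drives Ddit3, Trib3, Asns and Chac1. In the kidney the proximal tubule is known as a site of ER stress under protein overload and toxins. The deposited values were FPKM, that is fragments counted on a gene, divided by its length and by the size of the library. They do not separate spliced from unspliced Xbp1, and neither eIF2 alpha phosphorylation nor protein was measured.

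Each library held 13997657 to 17107876 reads, recovered from the FPKM values and the gene lengths. Gcgr, the target of the hairpin, averaged 13.02 ± 1.70 FPKM in the libraries labelled DKD_shRNA, 9.74 ± 2.14 FPKM in DKD_Vehicle and 20.8 ± 2.42 FPKM in NC (SD, n = 7, 6 and 4). It was not lowest where the hairpin was labelled, so these are named by their label throughout. Summed proximal tubule markers reached 3274 to 3997 FPKM in the libraries labelled DKD_shRNA, 2858 to 4094 in DKD_Vehicle and 4244 to 5189 in NC. Thick ascending limb markers summed to 949 to 1309 FPKM in the libraries labelled DKD_shRNA, 465 to 1165 in DKD_Vehicle and 1143 to 1575 in NC. Macrophage markers summed to 96.2 to 168 FPKM in the libraries labelled DKD_shRNA, 69.2 to 169.6 in DKD_Vehicle and 68.0 to 90.4 in NC. T cell markers summed to 3.04 to 6.16 FPKM in the libraries labelled DKD_shRNA, 2.55 to 7.81 in DKD_Vehicle and 1.52 to 3.00 in NC. The part of these cell types in the changes of Asns, Ddit3, Gdf15 and the other genes below was not tested. DKD_Vehicle 20 stood apart, with 691 FPKM of summed adipocyte markers (at most 47.5 elsewhere) and 176 FPKM of summed urothelial markers (at most 11.7 elsewhere). Its distal tubule and collecting duct markers summed to 1078 FPKM (at most 649 elsewhere). It also had the lowest proximal tubule and thick ascending limb sums, 2858 and 465 FPKM. In such bulk samples, fewer cells of a type and less RNA per cell cannot be told apart.

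Asns and Ddit3 were higher in DKD_Vehicle than in NC, Asns was also higher in the libraries labelled DKD_shRNA than in NC, and no other member passed the test in any comparison. The test was limma on log2(FPKM + 1) over all 3 groups, with Benjamini-Hochberg adjustment over the 13279 genes that reached an FPKM of 1 in at least 4 libraries and a threshold of 0.05. Of the 10 members, 9 passed this filter and Chac1 did not. Trib3 passed it only through libraries of the disease groups, since no NC library reached an FPKM of 1. Between DKD_Vehicle and NC, 2 of 9 members passed as higher and 0 as lower, where 3.58% of all tested genes passed as higher and 3.91% as lower. Between the libraries labelled DKD_shRNA and NC, 1 of 9 passed as higher and 0 as lower, where 1.42% of tested genes passed as higher and 0.595% as lower (with every library scaled to the same total, 133 genes passed as higher and 113 as lower, in place of 189 and 79). Between the libraries labelled DKD_shRNA and DKD_Vehicle, 0 of 9 passed, and 0 of all 13279 genes (0% called). At an unadjusted p under 0.05 there were 972 genes in that comparison, none of them a member, and limma voom on the recovered reads also called 0 genes. The comparisons share libraries: the same NC libraries stand against both disease groups, and the DKD_Vehicle libraries enter both its own comparison with NC and that with the libraries labelled DKD_shRNA.

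**Figure D1:**
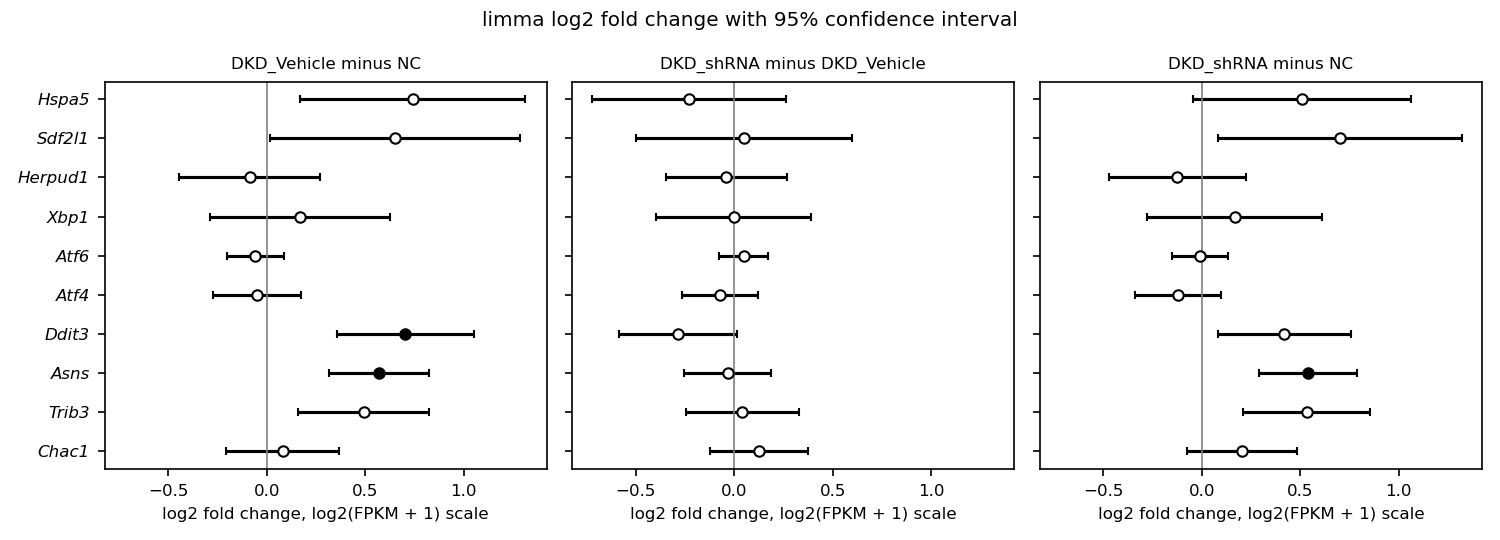
Log2 fold change of log2(FPKM + 1) from limma with its 95% confidence interval for the 10 members, in DKD_Vehicle against NC, the libraries labelled DKD_shRNA against DKD_Vehicle, and the libraries labelled DKD_shRNA against NC; filled points pass the adjusted p threshold of 0.05, and Chac1 comes from a fit without the filter. Asns and Ddit3 are filled in the first comparison (0.57 and 0.70), Asns alone in the last (0.54), and no point is filled between the shRNA and Vehicle groups.

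FPKM is per length, so levels of different genes can be set side by side, but only roughly. The length deposited for Ddit3, 1713 bases, equals all its annotated exonic bases together, which 1 transcript need not hold. In NC, Herpud1 was most abundant at 169 ± 6.81 FPKM, followed by Hspa5 at 79.6 ± 9.07, Xbp1 at 43.9 ± 8.19 and Atf4 at 37.7 ± 5.92 FPKM (SD, n = 4). Sdf2l1 averaged 7.42 ± 1.06, Ddit3 6.27 ± 1.33 and Atf6 6.09 ± 0.190 FPKM in NC, with Asns at 1.52 ± 0.226, Chac1 at 0.559 ± 0.119 and Trib3 at 0.464 ± 0.185 FPKM. Among neighbours in that order, the NC libraries of Xbp1 and Atf4 overlapped, as did those of Sdf2l1, Ddit3 and Atf6 and those of Chac1 and Trib3. The other neighbours did not overlap.

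**Figure D2:**
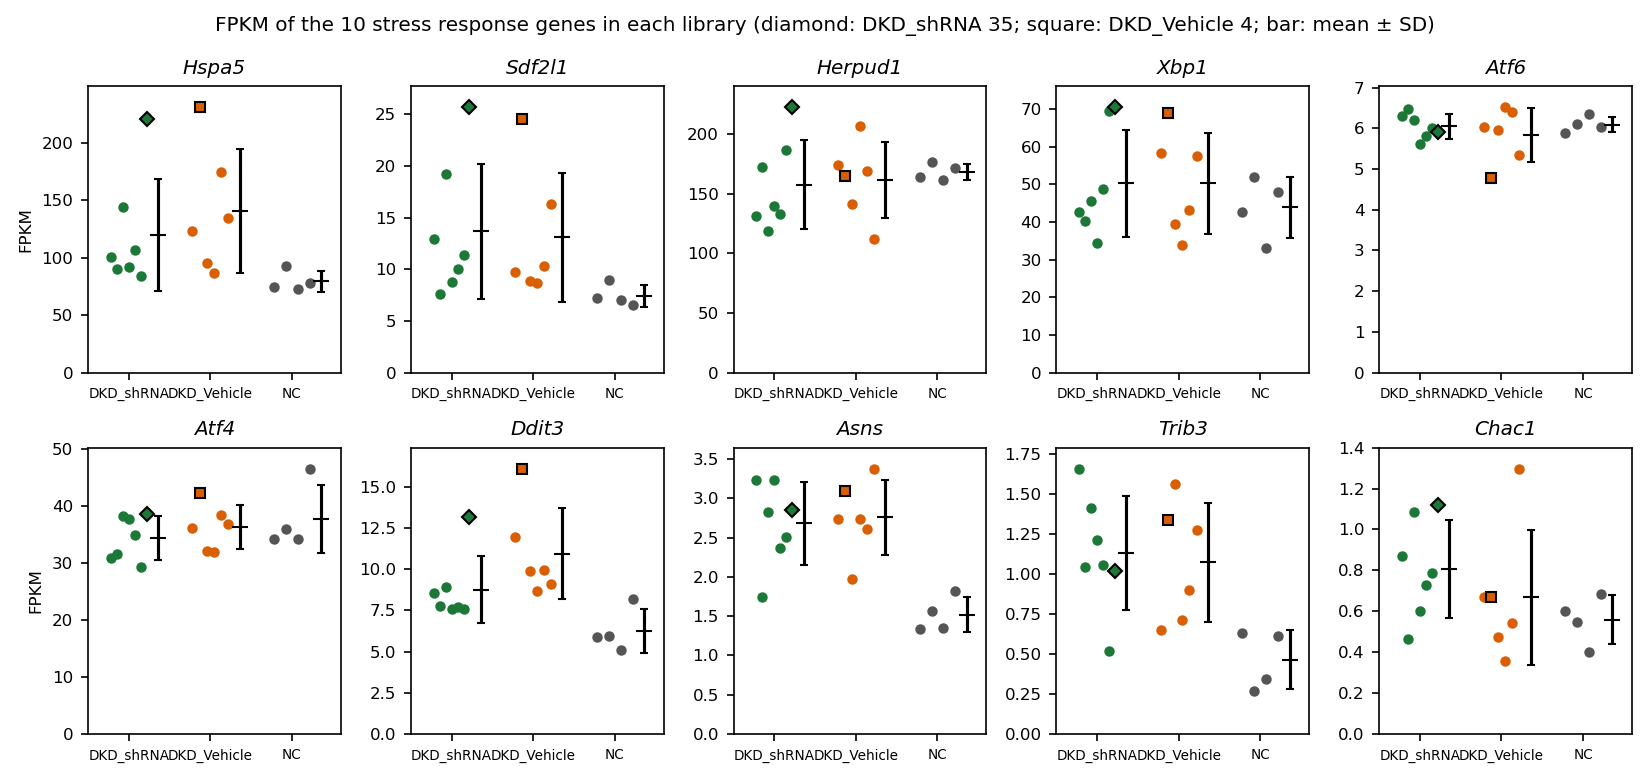
FPKM of each member (1 panel a gene, linear axis) in every library, with the libraries labelled DKD_shRNA, DKD_Vehicle and NC from left to right, bars for mean ± SD, a diamond for DKD_shRNA 35 and a square for DKD_Vehicle 4. In the Hspa5 panel the diamond (221 FPKM) and the square (231 FPKM) stand above all other libraries, while the 4 NC libraries lie between 73.1 and 92.7 FPKM.

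Among the ER chaperones, Hspa5 encodes BiP, the Hsp70 of the ER lumen, which also holds the 3 sensors inactive. On GRCm38 the gene lies at chr2:34771970-34777547 on the plus strand. Its promoter holds an ER stress response element, the element known to be bound by ATF6 with NF-Y, and that of Herpud1 holds its type II form. Each is printed 5′ to 3′ on the gene's strand from RefSeq (GRCm38.p6), because these are the elements through which the ATF6 and XBP1 arms are known to act. Capitals mark the motif searched, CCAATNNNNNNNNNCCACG in Hspa5 (chr2:34772020-34772049, plus strand), which starts 65 bases before the RefSeq start and overlaps an exon annotated in GENCODE. In Herpud1 (chr8:94386302-94386402, plus strand, no annotated exon of this gene, neighbouring genes not checked) capitals mark ATTGGNCCACG, 52 bases before the start. Upstream of it, on the opposite strand and without overlap, they mark the amino acid response motif TGATGNAA.
Hspa5: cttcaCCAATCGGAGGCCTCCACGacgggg
Herpud1: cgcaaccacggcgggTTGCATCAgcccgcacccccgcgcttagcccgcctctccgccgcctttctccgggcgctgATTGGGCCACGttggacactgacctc
Both strands of 32851 RefSeq promoters, each of 300 bases with 250 before the start, were searched. The first motif was found in 39 of them (0.119%) and the second in 12 (0.0365%). Promoters of 9 members were in the table, all but that of Atf6. A match describes these letters and shows no binding.

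Hspa5 reached 83.7 to 221 FPKM in the libraries labelled DKD_shRNA (median 101), 86.8 to 231 FPKM in DKD_Vehicle (median 129), and 74.2, 92.7, 73.1 and 78.3 FPKM in NC 37, 38, 39 and 41. DKD_Vehicle 4, DKD_shRNA 35, DKD_Vehicle 19 (174 FPKM) and DKD_shRNA 29 (144 FPKM) were highest, and both disease groups overlapped NC at their low end. The difference was 0.74 ± 0.27 on the log2 scale (1.67-fold) between DKD_Vehicle and NC and did not pass the adjusted test (limma adjusted p = 0.104). Between the libraries labelled DKD_shRNA and NC it was 0.51 ± 0.26 (adjusted p = 0.353 in limma), and 0.35 without DKD_shRNA 35. The highest library was 2.64 times the lowest among those labelled DKD_shRNA, 2.66 times in DKD_Vehicle and 1.27 times in NC.

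Sdf2l1, an ER-resident partner of BiP's J-domain co-chaperones (chr16:17130138-17132383, minus strand), had a similar spread. It reached 7.58 to 25.7 FPKM in the libraries labelled DKD_shRNA (median 11.4), 8.70 to 24.5 FPKM in DKD_Vehicle (median 10.04), and 7.19, 8.95, 7.01 and 6.52 FPKM in NC 37, 38, 39 and 41. DKD_shRNA 35 and DKD_Vehicle 4 were again the top pair, followed by DKD_shRNA 29, and 2 libraries of each disease group fell within the NC range. The change against NC was 0.70 ± 0.29 in the libraries labelled DKD_shRNA and 0.65 ± 0.30 in DKD_Vehicle, with limma adjusted p of 0.244 and 0.204. Without DKD_Vehicle 4 the change in DKD_Vehicle was 0.46.

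**Figure D3:**
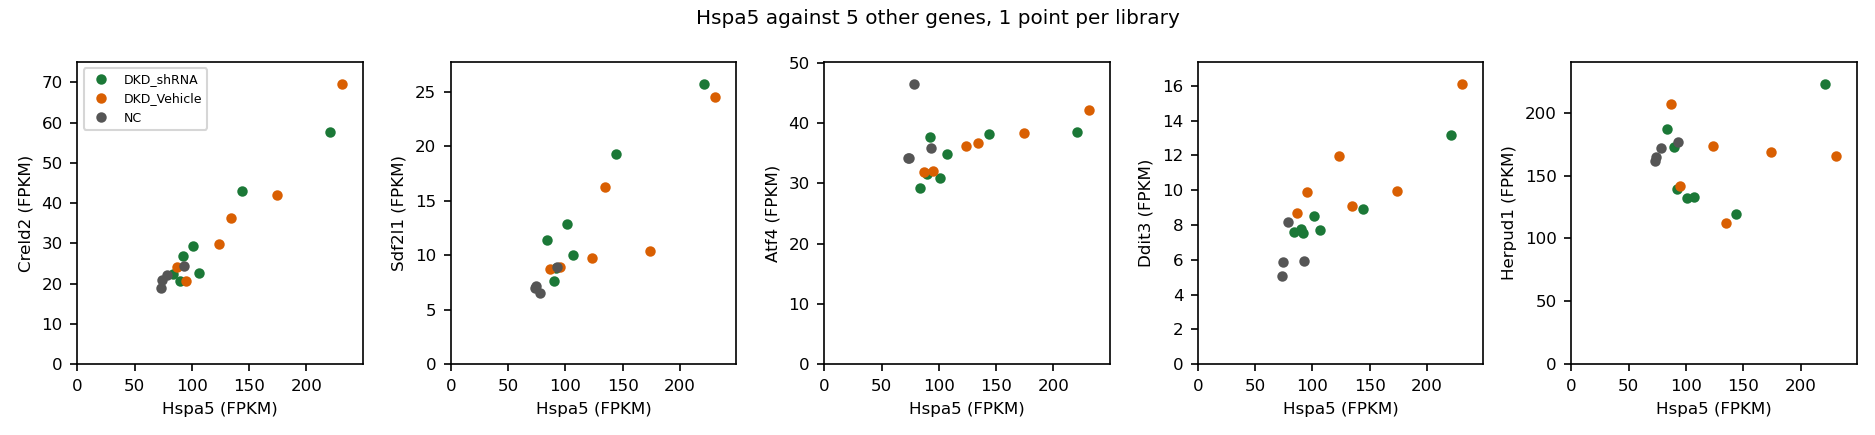
Hspa5 FPKM (x axis) against the FPKM of Creld2, Sdf2l1, Atf4, Ddit3 and Herpud1 (y axes, 1 panel each), 1 point per library and 1 colour per group. DKD_shRNA 35 and DKD_Vehicle 4 lie at the upper right for Creld2 (57.6 and 69.5 FPKM), Sdf2l1 and Ddit3, whereas for Herpud1 DKD_Vehicle 4 lies among the other libraries at 165 FPKM.

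The genes most like Hspa5 across the 17 libraries were Creld2, Manf and Hyou1, by the root mean square difference of z-scored log2(FPKM + 1), which was 0.275, 0.323 and 0.324, against a median of 1.35 over all tested genes. Stip1 (0.338) and Ubxn4 (0.352) followed. Creld2, a secreted protein known to be induced by ER stress, had 57.6 FPKM in DKD_shRNA 35 and 69.5 FPKM in DKD_Vehicle 4, with 18.9 to 24.3 FPKM in NC. Manf, a secreted factor held in the ER by BiP, had 30.8 FPKM in DKD_shRNA 35 and 34.6 FPKM in DKD_Vehicle 4, with 10.95 to 11.8 FPKM in NC. Hyou1, an ER nucleotide exchange factor, had 25.4 FPKM in DKD_shRNA 35 and 26.5 FPKM in DKD_Vehicle 4, with 11.1 to 13.8 FPKM in NC. These genes were picked for likeness to Hspa5 in the same libraries, so high values where Hspa5 was highest follow from the pick. Other disease libraries fell below all NC libraries. Manf had 9.51 and 9.14 FPKM in DKD_Vehicle 6 and 8 and 9.80 and 10.5 FPKM in DKD_shRNA 15 and 31. Hyou1 had 10.6 FPKM in DKD_Vehicle 6.

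A list of 28 other ER chaperones and folding enzymes was tested in full. Between DKD_Vehicle and NC, 2 (7.14%) passed as higher and 1 (3.57%) as lower, where 3.58% and 3.91% of all tested genes did. The higher ones were Ero1lb, an ER oxidase (0.28 ± 0.08, limma adjusted p = 0.0454), and Nucb2, a calcium-binding precursor of a secreted peptide (0.29 ± 0.09, adjusted p = 0.0484). Txndc5, a disulfide isomerase, was lower (-0.28 ± 0.07, adjusted p = 0.0316 in limma). The Ero1lb call ended without any 1 library other than DKD_Vehicle 1, 8 or 20 (adjusted p up to 0.139 in limma), and the Nucb2 call without any 1 other than DKD_shRNA 29 or DKD_Vehicle 20 (up to 0.127). The Txndc5 call ended without DKD_Vehicle 1, 4 or 6 or NC 37, 39 or 41 (up to 0.101), and also without the filter, by voom, with 2 groups fitted, without both DKD_Vehicle 20 and DKD_shRNA 31 and scaled to the same total (up to 0.116). Of the 28, 22 had a change above 0, as did 51.5% of all tested genes, with a median of 0.14 against 0.0071 over all genes. In the libraries labelled DKD_shRNA none passed against NC, 21 were above 0 and the median was 0.11. Over all tested genes 48.8% were above 0 there and the median was -0.0049. Of the 28, Pdia6, a disulfide isomerase, had the smallest p there (53.0 ± 9.09 against 38.8 ± 2.18 FPKM, limma adjusted p = 0.110). By library, DKD_Vehicle 4 was the highest of the 17 for 11 of the 28 genes, DKD_Vehicle 19 for 5 and DKD_shRNA 29 and 35 for 3 each. The median log2 difference of the list from the NC mean was 0.35 in DKD_Vehicle 4 and 0.25, 0.25 and 0.24 in DKD_Vehicle 19, DKD_shRNA 35 and DKD_shRNA 29.

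Plasma and B cells, which carry much ER, were read from 9 markers present in the table, none of which was at 0 in every library of a group. Their summed FPKM was 74.7 to 275 in the libraries labelled DKD_shRNA, 55.2 to 255 in DKD_Vehicle and 98.6 to 194 in NC. It was highest in DKD_shRNA 35 and DKD_Vehicle 4, followed by DKD_shRNA 31 (243) and DKD_Vehicle 8 (232). Hspa5 was at 92.1 FPKM in DKD_shRNA 31 and 86.8 FPKM in DKD_Vehicle 8. The marker sum was lowest in DKD_Vehicle 19 and at 86.1 in DKD_shRNA 29. Its part in the chaperone levels was not tested.

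Herpud1 encodes a membrane protein that brings substrates to the Hrd1 complex of ER-associated degradation (chr8:94386438-94395377, plus strand). It had 119 to 223 FPKM in the libraries labelled DKD_shRNA (median 139.7), 112 to 207 FPKM in DKD_Vehicle (median 167), and 165, 177, 162 and 172 FPKM in NC 37, 38, 39 and 41. The disease groups spread to both sides of a narrow NC range: its SD was 23.7% of the mean in the libraries labelled DKD_shRNA, 19.8% in DKD_Vehicle and 4.04% in NC. The change against NC was -0.13 ± 0.16 (interval -0.47 to 0.22) in the libraries labelled DKD_shRNA and -0.09 ± 0.17 (-0.44 to 0.27) in DKD_Vehicle, with limma adjusted p of 0.759 and 0.806. DKD_shRNA 35 was highest here too, but DKD_Vehicle 8, with the second highest Herpud1, had the lowest Hspa5 of its group.

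Of 20 other degradation genes, all tested, 2 (10%) passed as lower and 0 as higher between DKD_Vehicle and NC. Over all tested genes these shares were 3.91% and 3.58%, and no gene of the 20 passed in the other comparisons. One of the 2 was Os9. This lectin, which recognises misfolded glycoproteins, had 72.7 ± 8.44 FPKM in DKD_Vehicle and 88.2 ± 3.64 FPKM in NC (-0.28 ± 0.08, adjusted p = 0.0395 in limma, n = 6 and 4). The Os9 call ended without DKD_Vehicle 6, 8 or 20 or any 1 NC library (limma adjusted p up to 0.120). In the libraries labelled DKD_shRNA Os9 was at 83.3 ± 3.16 FPKM, 0.20 above DKD_Vehicle with an adjusted p of 0.480 in limma. Derl3, a channel-like subunit of the degradation complex, averaged 2.73 ± 1.26 FPKM in the libraries labelled DKD_shRNA, 2.63 ± 1.65 FPKM in DKD_Vehicle and 0.759 ± 0.163 FPKM in NC. No NC library of Derl3 reached an FPKM of 1, so it passed the filter only through the disease groups. Its tests against NC are thus not independent of that choice. Its change between the libraries labelled DKD_shRNA and NC was 1.01 ± 0.28 (limma adjusted p = 0.0763), and its highest values were in DKD_Vehicle 4 (5.81 FPKM) and DKD_shRNA 35 (4.33 FPKM).

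Of the sensors and their transcription factors, Atf6 (chr1:170704674-170867771, minus strand) varied little. It had 5.62 to 6.47 FPKM in the libraries labelled DKD_shRNA, 4.79 to 6.51 FPKM in DKD_Vehicle and 5.88 to 6.34 FPKM in NC. DKD_Vehicle 4, highest of all for Hspa5, was lowest of all for Atf6. Against NC the change was -0.01 ± 0.07 (interval -0.15 to 0.13) in the libraries labelled DKD_shRNA and -0.06 ± 0.07 (-0.20 to 0.09) in DKD_Vehicle, with limma adjusted p of 0.957 and 0.656. Xbp1 (chr11:5520659-5525893, plus strand) had 34.4 to 70.4 FPKM in the libraries labelled DKD_shRNA (median 45.5), 33.99 to 68.9 FPKM in DKD_Vehicle (median 50.3), and 42.6, 51.9, 33.0 and 47.9 FPKM in NC. The groups overlapped widely, with DKD_shRNA 35, DKD_shRNA 34 (69.5 FPKM) and DKD_Vehicle 4 at the top. Its change against NC was 0.17 ± 0.21 in the libraries labelled DKD_shRNA and 0.17 ± 0.22 in DKD_Vehicle (limma adjusted p of 0.747 and 0.688).

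Atf4, the transcription factor at the centre of the integrated stress response (chr15:80255184-80257541, plus strand), had 29.3 to 38.5 FPKM in the libraries labelled DKD_shRNA (median 34.8), 31.9 to 42.2 FPKM in DKD_Vehicle (median 36.4), and 34.1, 35.9, 34.2 and 46.5 FPKM in NC 37, 38, 39 and 41. NC 41 was the highest of all 17 libraries. The change against NC was -0.12 ± 0.10 (interval -0.34 to 0.10) in the libraries labelled DKD_shRNA and -0.05 ± 0.11 (-0.27 to 0.18) in DKD_Vehicle, with limma adjusted p of 0.597 and 0.823. The groups overlapped, and no difference in Atf4 transcript was detectable. As background, ATF4 is regulated largely at translation.

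Of 18 further genes for sensors and eIF2 alpha control, 16 were tested. Between DKD_Vehicle and NC, 1 passed as higher and 2 as lower, and none passed in the other comparisons. Eif2s1, which encodes eIF2 alpha itself, had 8.99 ± 0.788 FPKM in DKD_Vehicle and 7.23 ± 0.815 FPKM in NC (0.28 ± 0.08, limma adjusted p = 0.0470). Creb3l1, an ER-bound transcription factor related to ATF6, had 1.65 ± 0.410 FPKM in DKD_Vehicle and 2.96 ± 0.386 FPKM in NC (-0.59 ± 0.13, limma adjusted p = 0.0113), and 1.91 ± 0.452 FPKM in the libraries labelled DKD_shRNA. Mbtps1, the site-1 protease that cleaves ATF6, had 6.53 ± 0.860 FPKM in DKD_Vehicle and 8.26 ± 0.445 FPKM in NC (-0.31 ± 0.09, adjusted p = 0.0448 in limma). The Creb3l1 call held with each library left out in turn, while that of Eif2s1 ended without any 1 library other than DKD_shRNA 31 or 35, DKD_Vehicle 1 or 20 or NC 41 (limma adjusted p up to 0.165). The Mbtps1 call ended without any 1 library other than DKD_shRNA 13 or 29 or DKD_Vehicle 19 or 20 (up to 0.129).

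**Figure D4:**
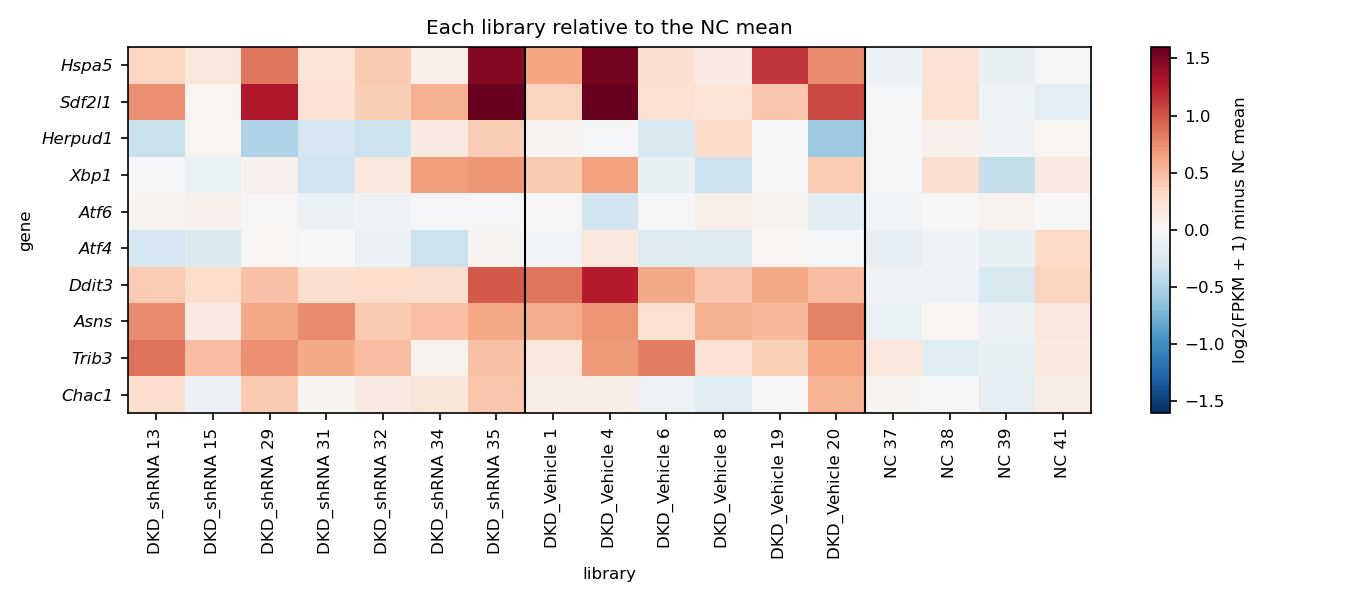
Log2(FPKM + 1) minus the NC mean for the 10 members (rows) in the 17 libraries (columns), with the libraries labelled DKD_shRNA, DKD_Vehicle and NC from left to right. Hspa5, Sdf2l1 and Ddit3 are together highest in DKD_shRNA 35 and DKD_Vehicle 4, while Asns and Trib3 lie above the NC mean in all 13 libraries of both disease groups.

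Ddit3 encodes CHOP, the transcription factor that links prolonged ER stress to apoptosis (chr10:127290774-127296288, plus strand). It had 8.67 to 16.1 FPKM in DKD_Vehicle (12.0, 16.1, 9.89, 8.67, 9.93 and 9.08 FPKM in DKD_Vehicle 1, 4, 6, 8, 19 and 20), and 5.89, 5.94, 5.07 and 8.17 FPKM in NC 37, 38, 39 and 41. All 6 DKD_Vehicle libraries lay above all 4 NC libraries, as was so for 4.71% of tested genes. The change was 0.70 ± 0.17 (1.63-fold on the log2(FPKM + 1) scale, limma adjusted p = 0.0153). Without NC 37, 38 or 39 the adjusted p in limma was 0.0523, 0.0515 and 0.0706. In the libraries labelled DKD_shRNA Ddit3 had 7.56 to 13.2 FPKM (median 7.77), with 6 of the 7 at 8.94 FPKM or lower and 4 below NC 41. There the change was 0.42 ± 0.16 against NC (limma adjusted p = 0.203) and -0.28 ± 0.14 against DKD_Vehicle (interval -0.58 to 0.02, unadjusted p = 0.0613, limma adjusted p = 0.702). In the annotation, 68 of its 1713 exonic bases (3.97%) lie within exons of Mars on the opposite strand, and the use of strand in counting is not stated. Mars, the methionyl-tRNA synthetase, averaged 15.3 FPKM in the libraries labelled DKD_shRNA, 14.7 FPKM in DKD_Vehicle and 15.9 FPKM in NC.

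Asns encodes asparagine synthetase, a classical ATF4 target in amino acid shortage (chr6:7675169-7693254, minus strand). Its promoter holds the amino acid response motif TGATGNAA, which starts 23 bases before the RefSeq start in a window at chr6:7693214-7693243 (minus strand, overlapping an annotated exon). The Chac1 promoter holds it on the opposite strand, 193 bases before the start, in a window at chr2:119351024-119351081 (plus strand, no annotated exon of Chac1, neighbouring genes not checked). They are printed because ATF4 is known to act on both genes through such elements, with the motif in capitals.
Asns: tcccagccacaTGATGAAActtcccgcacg
Chac1: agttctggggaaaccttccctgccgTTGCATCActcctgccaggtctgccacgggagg
The motif was found in 1304 of the 32851 promoters (3.97%), among them those of 4 members, which are Asns, Chac1, Herpud1 and Trib3.

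Asns had 3.24, 1.75, 2.83, 3.23, 2.37, 2.50 and 2.86 FPKM in DKD_shRNA 13, 15, 29, 31, 32, 34 and 35, 2.74, 3.10, 1.98, 2.74, 2.61 and 3.38 FPKM in DKD_Vehicle 1, 4, 6, 8, 19 and 20, and 1.34, 1.57, 1.35 and 1.82 FPKM in NC 37, 38, 39 and 41. All 6 DKD_Vehicle libraries lay above all NC libraries, as was so for 4.71% of tested genes. Among the libraries labelled DKD_shRNA only DKD_shRNA 15 fell below NC 41. The change between DKD_Vehicle and NC was 0.57 ± 0.12 (1.49-fold on the log2(FPKM + 1) scale, limma adjusted p = 0.00892), and the call held under every alternative that tested the gene. Between the libraries labelled DKD_shRNA and NC it was 0.54 ± 0.12 (1.45-fold, limma adjusted p = 0.0238). The call for the libraries labelled DKD_shRNA ended without DKD_shRNA 13 or NC 37, 38 or 39, with limma adjusted p of 0.0520, 0.0996, 0.0743 and 0.102. That call also ended without the filter, scaled to the same total and by limma voom, with limma adjusted p of 0.0637, 0.0685 and 0.0650. The libraries labelled DKD_shRNA differed from DKD_Vehicle by -0.03 ± 0.10 (interval -0.25 to 0.19).

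Trib3 encodes a pseudokinase that is induced by ATF4 and CHOP and dampens both ATF4 and AKT signalling (chr2:152337422-152344032, minus strand). It had 1.66, 1.04, 1.42, 1.21, 1.06, 0.518 and 1.02 FPKM in DKD_shRNA 13, 15, 29, 31, 32, 34 and 35, 0.651, 1.34, 1.57, 0.715, 0.904 and 1.27 FPKM in DKD_Vehicle 1, 4, 6, 8, 19 and 20, and 0.631, 0.271, 0.341 and 0.615 FPKM in NC. DKD_Vehicle lay above NC in all libraries, as was so for 4.71% of tested genes, by a small margin in DKD_Vehicle 1. DKD_shRNA 34 was the one disease library within the NC range. These values rest on 9 to 57 reads per library. The change was 0.53 ± 0.15 between the libraries labelled DKD_shRNA and NC and 0.49 ± 0.16 between DKD_Vehicle and NC, and neither passed (limma adjusted p of 0.0905 and 0.0660). With a pseudocount of 0.1 in place of 1 the changes were 1.13 and 1.06, and that in DKD_Vehicle passed (limma adjusted p of 0.0618 and 0.0455). By limma voom on the recovered reads they were 1.26 and 1.22, and neither passed (adjusted p of 0.131 and 0.0758). Without DKD_shRNA 34 both had a limma adjusted p under the threshold, 0.0329 and 0.0442, and without DKD_Vehicle 1 that in DKD_Vehicle did (0.0485). Over all alternatives the limma adjusted p reached 0.272 in the libraries labelled DKD_shRNA and 0.189 in DKD_Vehicle. Since Trib3 reached the filter only where it is high, its tests against NC are not independent of that choice. The genes most like Trib3 in pattern were Plk2, Utp18, Actb, Atf5 and Psmg3, with root mean square z differences of 0.527 to 0.598 against a median of 1.37.

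Chac1, which degrades glutathione and is induced through ATF4 and CHOP (chr2:119351229-119354381, plus strand), stayed below the filter, with 10 to 40 reads per library. It had 0.463 to 1.12 FPKM in the libraries labelled DKD_shRNA (median 0.785), 0.357 to 1.30 FPKM in DKD_Vehicle (median 0.607), and 0.603, 0.547, 0.402 and 0.684 FPKM in NC. The groups overlapped. In a limma fit without the filter, the change was 0.20 ± 0.13 between the libraries labelled DKD_shRNA and NC and 0.08 ± 0.14 between DKD_Vehicle and NC (adjusted p of 0.648 and 0.858).

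Of 28 other known targets of ATF4 and CHOP, 23 were tested. Between DKD_Vehicle and NC, 5 (21.7%) passed as higher and 0 as lower, where 3.58% and 3.91% of all tested genes did. The median change was 0.20, against 0.0071 over all tested genes. Against NC, 4 of these 5 passed as higher in the libraries labelled DKD_shRNA (17.4% of those tested) and 0 as lower. Over all tested genes the shares there were 1.42% and 0.595%. The median of the list was 0.16, against -0.0049 over all tested genes. In both comparisons the passing genes of the list include Tnfrsf10b, which reached the filter only through the disease groups. The list was also chosen with earlier results of these data known, so these shares are no independent support for a change in it. Gdf15, a stress-induced circulating cytokine, averaged 29.5 ± 7.75 FPKM in the libraries labelled DKD_shRNA, 28.9 ± 14.4 FPKM in DKD_Vehicle and 5.41 ± 0.519 FPKM in NC (SD, n = 7, 6 and 4). Its lowest disease library, at 14.5 FPKM, lay above the highest NC library at 6.08 FPKM. Groups did not overlap, with the disease group higher, for 3.31% of tested genes in the libraries labelled DKD_shRNA and 4.71% in DKD_Vehicle. On the log2(FPKM + 1) scale it was 4.60-fold higher in the libraries labelled DKD_shRNA than in NC (limma adjusted p = 0.000154) and 4.33-fold higher in DKD_Vehicle than in NC (limma adjusted p = 0.000238).

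The other 4 were 3 apoptosis genes and a transcription factor. Bbc3, which encodes the BH3-only protein PUMA, averaged 4.19 ± 0.765 FPKM in the libraries labelled DKD_shRNA, 4.80 ± 0.986 FPKM in DKD_Vehicle and 1.87 ± 0.428 FPKM in NC, with limma adjusted p of 0.00244 and 0.000411 against NC. Pmaip1, which encodes the BH3-only protein NOXA, averaged 4.67 ± 0.812 FPKM in the libraries labelled DKD_shRNA, 6.22 ± 1.37 FPKM in DKD_Vehicle and 2.73 ± 0.759 FPKM in NC, with limma adjusted p of 0.0497 and 0.00176 against NC. Tnfrsf10b, the TRAIL death receptor, had 0.642 to 1.51 FPKM in the libraries labelled DKD_shRNA, 1.03 to 1.28 FPKM in DKD_Vehicle and 0.434 to 0.466 FPKM in NC, so it too reached the filter only through the disease groups. It was 0.48 ± 0.11 higher in the libraries labelled DKD_shRNA and 0.57 ± 0.11 higher in DKD_Vehicle than in NC (limma adjusted p of 0.0238 and 0.00488). Atf5, an ATF4-related transcription factor, was 0.80 ± 0.17 higher in DKD_Vehicle than in NC (limma adjusted p = 0.00849), and its change of 0.55 in the libraries labelled DKD_shRNA did not pass (adjusted p = 0.103 in limma). All 5 calls in DKD_Vehicle, and those of Gdf15 and Bbc3 in the libraries labelled DKD_shRNA, held with each library left out in turn. In the libraries labelled DKD_shRNA the Pmaip1 call ended without any 1 library other than DKD_shRNA 34, DKD_Vehicle 4, 8, 19 or 20 or NC 38 (limma adjusted p up to 0.190). The Tnfrsf10b call there ended without DKD_shRNA 13 or any 1 NC library (up to 0.0839). Gdf15, Bbc3, Pmaip1 and Tnfrsf10b are also known targets of p53.

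**Figure D5:**
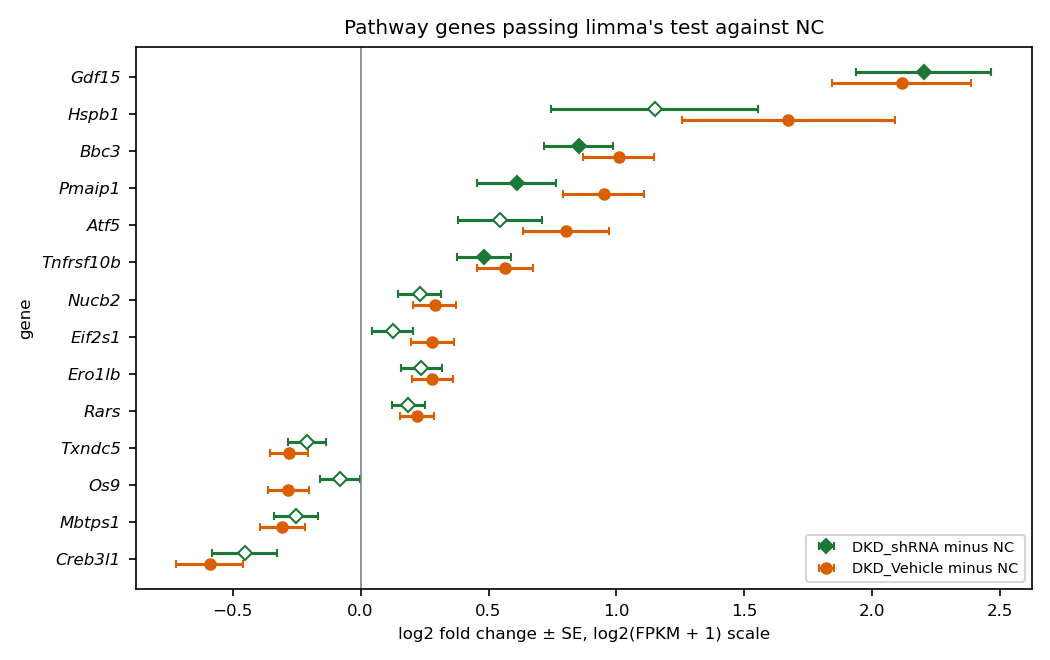
Log2 fold change ± SE from limma for 14 of the 15 listed pathway genes that passed between DKD_Vehicle and NC, in the libraries labelled DKD_shRNA against NC (diamonds) and in DKD_Vehicle against NC (circles), filled where the adjusted p passed 0.05. Gdf15 lies farthest to the right at 2.20 and 2.11, and 4 diamonds are filled.

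None of the 6 tested genes of 9 for serine, one-carbon and proline synthesis passed in any comparison; Mthfd2, a mitochondrial folate enzyme and known ATF4 target, averaged 1.69 ± 0.459 FPKM in the libraries labelled DKD_shRNA, 1.99 ± 0.476 FPKM in DKD_Vehicle and 1.27 ± 0.126 FPKM in NC (limma adjusted p of 0.382 and 0.0800 against NC). Of 20 cytosolic aminoacyl-tRNA synthetases, 1 (5%) passed as higher between DKD_Vehicle and NC, where 3.58% of all tested genes did. This was Rars (0.22 ± 0.07, limma adjusted p = 0.0498). The Rars call ended without any 1 library other than DKD_Vehicle 1 or 20 or NC 41 (up to 0.160). None of 7 mitochondrial stress genes passed. Of 10 cytosolic heat shock genes, 1 (10%) passed as higher between DKD_Vehicle and NC, where 3.58% of all tested genes did. This was Hspb1, a small chaperone of the cytoskeleton. It averaged 32 ± 17.8 FPKM in the libraries labelled DKD_shRNA, 49.3 ± 37.4 FPKM in DKD_Vehicle and 12.3 ± 1.52 FPKM in NC (limma adjusted p = 0.0220 in DKD_Vehicle). The highest Hspb1 value, 121 FPKM, was in DKD_Vehicle 20, the library with adipocyte and urothelial transcripts, and the part of those cells was not tested. The call ended without NC 37, 38 or 39, with a limma adjusted p of up to 0.0663, and also without the filter on low values (0.0612) and by limma voom. Over all 138 listed genes, 128 tested, 10 (7.81%) passed as higher and 5 (3.91%) as lower between DKD_Vehicle and NC, where the shares over all tested genes were 3.58% and 3.91%. Between the libraries labelled DKD_shRNA and NC, 4 (3.12%) passed as higher and 0 as lower, where the shares over all tested genes were 1.42% and 0.595%. In both comparisons the genes passing as higher include Tnfrsf10b, which reached the filter only through the disease groups. The lists were also chosen with earlier results of these data known, so these shares are no independent support for a change in them. The median change over the 128 was 0.06 between DKD_Vehicle and NC. Calls also ended under other settings. Between DKD_Vehicle and NC, those of Eif2s1, Ero1lb, Mbtps1, Nucb2 and Rars ended without the filter, scaled to the same total and with 2 groups fitted, with limma adjusted p of up to 0.108, 0.113, 0.169, 0.0963 and 0.103, and that of Mbtps1 also by voom. The Os9 call ended without the filter, with 2 groups fitted and without both DKD_Vehicle 20 and DKD_shRNA 31 (up to 0.108). The Pmaip1 call in the libraries labelled DKD_shRNA ended without the filter, under both other scalings, by voom and without both libraries (up to 0.140), and the Tnfrsf10b call there ended scaled to the same total and with 2 groups fitted (up to 0.0752). Without both DKD_Vehicle 20 and DKD_shRNA 31, 13 passed as higher and 2 as lower between DKD_Vehicle and NC, and 2 members passed as before.

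Between the libraries labelled DKD_shRNA and DKD_Vehicle, the comparison meant to show what the hairpin did, no member and no listed gene passed. The intervals bound what could have been missed. For Hspa5 the difference was -0.23 ± 0.23 (interval -0.72 to 0.26), for Sdf2l1 0.05 ± 0.26 (-0.50 to 0.60), and for Xbp1 -0.00 ± 0.19 (-0.40 to 0.39). For Atf4 it was -0.07 ± 0.09 (-0.27 to 0.12), for Atf6 0.05 ± 0.06 (-0.08 to 0.17), for Herpud1 -0.04 ± 0.15 (-0.35 to 0.27) and for Trib3 0.04 ± 0.14 (-0.25 to 0.33). Chaperone genes with wide spread were thus bounded loosely and Atf6 most tightly. On log2(FPKM + 1) the interval of a low gene such as Trib3 is narrowed, so Trib3 was bounded less tightly than its interval reads. Of the 10 heat shock genes none had a change above 0, with a median of -0.21. Over all tested genes 48.5% were above 0 and the median was -0.0043. The 10 genes share the same libraries, so they are not separate observations of the comparison. Among them Bag3, a co-chaperone of Hsp70, had the smallest p (-0.23 ± 0.11, limma adjusted p = 0.681).

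Within groups, Hspa5 was compared with the 9 other members, 18 relations in all, whose points share library and scaling. In DKD_Vehicle (n = 6) Hspa5 and Atf4 had Pearson's r of 0.987 and Spearman's rho of 1, each with an exact two-sided permutation p of 0.00278, the smallest that 6 libraries allow, and a Benjamini-Hochberg value of 0.05, which does not fall below the threshold. Without DKD_Vehicle 4 and 8, the farthest in Hspa5, r was 0.957. Hspa5 and Atf4 in the libraries labelled DKD_shRNA (n = 7) had r of 0.697 (exact permutation p = 0.0369, adjusted 0.133) and rho of 0.821 (exact permutation p = 0.0341, adjusted 0.205), and r was 0.399 without DKD_shRNA 29 and 35. In the libraries labelled DKD_shRNA (n = 7) Hspa5 and Ddit3 had r of 0.948 (exact permutation p = 0.0135, adjusted 0.102) and rho of 0.75 (exact permutation p = 0.0663, adjusted 0.264). The value of r was 0.457 without DKD_shRNA 29 and 35. Hspa5 and Sdf2l1 had r of 0.907 there (exact permutation p = 0.0171, adjusted 0.102) and rho of 0.714 (exact permutation p = 0.0881, adjusted 0.264). It was 0.225 without the same pair, so both relations rested on these 2 libraries. In DKD_Vehicle Hspa5 and Ddit3 had r of 0.74 (exact permutation p = 0.119, adjusted 0.269) and rho of 0.714 (exact permutation p = 0.136, adjusted 0.272), and r was -0.119 without DKD_Vehicle 4 and 8. Hspa5 and Sdf2l1 had r of 0.798 there (exact permutation p = 0.0694, adjusted 0.208) and rho of 0.943 (exact permutation p = 0.0167, adjusted 0.15), and r was 0.33 without the same libraries. Hspa5 and Herpud1 had r of 0.316 in the libraries labelled DKD_shRNA (rho -0.214, exact permutation p of 0.485 and 0.662), and -0.888 without DKD_shRNA 29 and 35. In DKD_Vehicle r was -0.125 (rho -0.371, exact permutation p of 0.808 and 0.497), and 0.227 without DKD_Vehicle 4 and 8. Hspa5 and Chac1, which has few reads, had r of 0.786 in the libraries labelled DKD_shRNA (exact permutation p = 0.025, adjusted 0.113), and 0.305 without DKD_shRNA 29 and 35. In DKD_Vehicle that r was 0.34 (exact permutation p = 0.531, adjusted 0.728).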

How the data were processed

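Per the labels' protocols, kidney RNA was taken up in Trizol and libraries came from a SMARTer mRNA kit. Per the file headers, the authors deposited 1 table that holds FPKM for every gene in every library, beside length and position. The submitters' processing notes name GRCm38 and mm10, which are 1 mouse build. The sources used here do not state the aligner, counter, annotation release or use of strand. One incomplete gene line, the last, was left out.

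Libraries were grouped by title, with no batch, sex or pairing given. FPKM values were transformed to log2(FPKM + 1), which understates changes of low genes, and tested by the trend method of limma 3.58.1 under R 4.3.3, with 1 mean per group over all 17 libraries and a filter of FPKM 1 in at least 4 libraries. The steps were tested on simulated data. Summaries, exact permutation tests and motif searches used Python 3.11.15, scipy 1.17.1 and pandas 2.3.3. FPKM times gene length gave whole multiples of 1 step per library for 100% of low values (up to 200 steps, tolerance 0.05), which gave recovered reads for limma voom. Chi-square per degree of freedom between libraries of a group was 7.13 to 76.1, so each library counted as 1 sample. Of the table's gene IDs, 42741 were found in a GENCODE annotation of GRCm38, 41896 (98.0%) at the same position, all members among them.

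All 10 members are named. From each pathway list, the text names up to 3 passing genes per comparison, by smallest p, or 1 where none passes; 1 gene so picked is not reported here. For Hspa5 and Trib3, the 5 genes most like them are named. Values of such genes in further comparisons, and Mars, which shares exons with Ddit3, were added after their values were seen. The members and lists were chosen with earlier results of these data known. Alternatives were a pseudocount of 0.1, no filter, a mean FPKM of at least 5, 2 other scalings, limma voom, sample weights, fits of 2 groups, and leaving out each library or both DKD_Vehicle 20 and DKD_shRNA 31.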

Additional observations from a re-analysis of the deposited data

Results flagged for a closer look

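In all, 3 values of the members stood far from the others of their group by Dixon's test, among 30 groups tested, where chance flags about 1 in 20 groups. Ddit3 was at 13.2 FPKM in DKD_shRNA 35, the highest of the libraries labelled DKD_shRNA, with a gap to the next of 0.753 of the range. Chac1 was at 1.3 FPKM in DKD_Vehicle 20, the highest of DKD_Vehicle, with a gap of 0.665 of the range. That library also held the most adipocyte and urothelial marker RNA, whose part was not tested. Atf4 was at 46.5 FPKM in NC 41, the highest of NC, with a gap of 0.861 of the range.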

How the results depend on the processing

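No paired analysis was possible because the groups share no replicate number. Over 232 alternative values of the members per comparison, 220, 210 and 219 kept direction and side of the threshold between DKD_Vehicle and NC, DKD_shRNA and DKD_Vehicle, and DKD_shRNA and NC.

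Between DKD_Vehicle and NC, 994 genes passed, and 597 without the filter, 2087 with sample weights and 458 to 1265 with 1 library left out (458, 480 and 490 without NC 39, 38 and 37, and 658 without DKD_Vehicle 4). Pathway genes passing were 15, and 7 without the filter, 9 scaled to the same total, 27 with sample weights, 8 with 2 groups fitted and 6 to 18 with 1 library left out. Members passing were 2, and 1 with a mean FPKM of at least 5, which removes Asns, Trib3 and Chac1, and 1 to 3 with 1 library left out. Between DKD_shRNA and NC, 268 genes passed, and 155 without the filter, 154 with a mean FPKM of at least 5, 1070 with sample weights, 438 with 2 groups fitted and 105 to 349 with 1 library left out (105, 115 and 136 without NC 39, 38 and 37, 166 without DKD_shRNA 13 and 171 without DKD_shRNA 35). Members passing were 1, and 0 without the filter, with a mean FPKM of at least 5, scaled to the same total and by voom, 3 with sample weights and 0 to 2 with 1 library left out. Pathway genes were 4, and 1 with a mean FPKM of at least 5, 2 scaled to the same total, 17 with sample weights and 2 to 5 with 1 library left out. Between DKD_shRNA and DKD_Vehicle, 0 genes passed, and 1 with a pseudocount of 0.1, a mean FPKM of at least 5 or 2 groups fitted, and 0 to 3 with 1 library left out.

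Directions turned round for changes near 0. Between DKD_Vehicle and NC, sample weights gave Xbp1 -0.0193, Atf6 0.0047 and Herpud1 0.0409, Herpud1 was 0.014 without DKD_Vehicle 20 and DKD_shRNA 31, and with 1 library left out Atf4 was -0.0933 to 0.0533 and Herpud1 -0.16 to 0.014. Between DKD_shRNA and DKD_Vehicle, Xbp1 was 0.21 with sample weights and 0.12 without both libraries, Atf6 was -0.0083 with sample weights, and with 1 library left out Xbp1 was -0.11 to 0.0942, Trib3 -0.0214 to 0.12, Asns -0.10 to 0.0351, Herpud1 -0.14 to 0.0364 and Sdf2l1 -0.11 to 0.24. Between DKD_shRNA and NC, Atf6 was 0.0046 without both libraries and -0.0244 to 0.0065 with 1 left out. The causes were not tested. Depth limits Chac1 and Trib3, which rest on few reads.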
